A study of Mus musculus with 6 samples.

Results

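Hox genes encode homeodomain transcription factors that give cells along the body axis their position, and in mammals they lie in tightly packed clusters named a, b, c and d. Genes in different clusters that descend from the same ancestral gene share a paralogue number, and within a cluster low numbers are active early and toward the head while high numbers are active later and toward the tail. Polycomb proteins keep Hox genes silent, Trithorax proteins keep them active, and retinoic acid is among their inducers. In the urogenital tract the genes with high numbers pattern the ducts that form the epididymis and vas deferens.

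The mRNA probes of the array were searched for RefSeq accessions that map to a symbol of the Hoxa, Hoxb, Hoxc or Hoxd clusters followed by a number. This gave 41 probes for 39 Hox genes, of 19053 named mRNA genes on the array. The samples were whole testes of C57/BL6 mice, untreated, at 6 days after birth (neonatal, 3 arrays) and at 8 weeks (adult, 3 arrays). Each array was hybridised with RNA from pooled animals of one age in a single colour. P-values therefore rest on the spread between pools, together with variance borrowed from other probes, and 3 arrays per age limit the precision.

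A gene is said to be detected on an array where the scanner marked a probe of it as well above background. Levels are given as the background-subtracted probe signal in percent of the array's 75th percentile. The arrays were read in 2 scans, with 4 arrays in scan 1 and both arrays numbered replicate 3 in scan 2. Changes are read within a probe between arrays. For marker lists the signals are summed and the gene with the highest signal is named, which is not a measure of relative abundance because probes differ in response. As a check of the labels, the spermatid markers Prm1, Prm2, Tnp1, Tnp2, Acrv1 and Spaca1 summed to 64.8, 68.9 and 77.5 percent in the neonatal arrays and to 102900, 119900 and 139900 percent in the adult arrays, with the highest signal from Prm2 in the adult. Most markers of Sertoli, Leydig and germ cells were well above background on every array. The spermatogonial marker Gfra1 was so on none, the spermatocyte marker Dmc1 on 1 adult array and the Sertoli marker Amh on 2 adult arrays.

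More Hox genes were detected in neonatal than in adult testes. In the neonatal arrays 28, 27 and 28 of the 39 genes were well above background, and in the adult arrays 21, 21 and 22. Over all spots the share well above background was 65.9, 69.2 and 68.5 percent in the neonatal and 69.8, 66.0 and 68.5 percent in the adult arrays. In Hox genes no neonatal array was as low as any adult array, while the shares over all spots overlapped. Genes detected on no array numbered 10 and included Hoxa2, Hoxa5, Hoxa6, Hoxa13, Hoxb1, Hoxc11, Hoxd3, Hoxd11 and Hoxd12. Of the other 29 genes, 27 could be tested. Hoxa4 and Hoxd8 could not, because the scanner marked too many of their spots as outliers.

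A gene was called where a probe changed at least 5-fold with an adjusted p of at most 0.05 (limma, blocking on replicate number, Benjamini-Hochberg over lncRNA and mRNA probes). By this rule 11 Hox genes were down-regulated in adult testes, against 13.7 percent of all tested mRNA probes, and 1 was up-regulated, against 12.6 percent. The median log2 fold change over the tested Hox genes was -1.44, and over all tested mRNA probes it was -0.40. With outlier-flagged spots kept these medians were -0.83 over 29 Hox genes and -0.50, so the gap depends on which spots are used. Because a gene had to be well above background on some array to be tested, these counts do not describe all 39 genes. In whole tissue, fewer cells of a type and less RNA per cell cannot be told apart. By the adjusted p alone, 15 Hox genes were lower in the adult and 5 were higher, against 45.8 and 29.7 percent of mRNA probes.

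By this rule most of the down-regulated genes lay in Hoxb. The Hoxb cluster on chromosome 11 held 7 of them, with 9 of its 10 genes tested. The Hoxc cluster on chromosome 15 held 2 among 8 tested genes, and the Hoxd cluster on chromosome 2 held 2 among 5. The Hoxa cluster on chromosome 6 held none among 5 tested genes, and its Hoxa3 was the up-regulated gene. The median log2 fold change was -0.49 in Hoxa, -3.70 in Hoxb, -1.62 in Hoxc and -0.71 in Hoxd. The Hoxa value leaves out Hoxa4, and with outlier-flagged spots kept it turned to 0.49 over 6 genes. With normexp background correction and an offset of 50 added to each signal, Hoxb2, Hoxb4, Hoxb8, Hoxb13 and Hoxd4 lost their calls, which left 3 down-regulated genes in Hoxb, 2 in Hoxc and 1 in Hoxd. The same 5 genes were lost when the offset was added to the scanner's own signal, and with normexp and no offset only Hoxb4 was lost. The counts by cluster thus depend on the offset, which draws dim signals together. Whether the clusters differ was not tested.

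**Figure D1:**
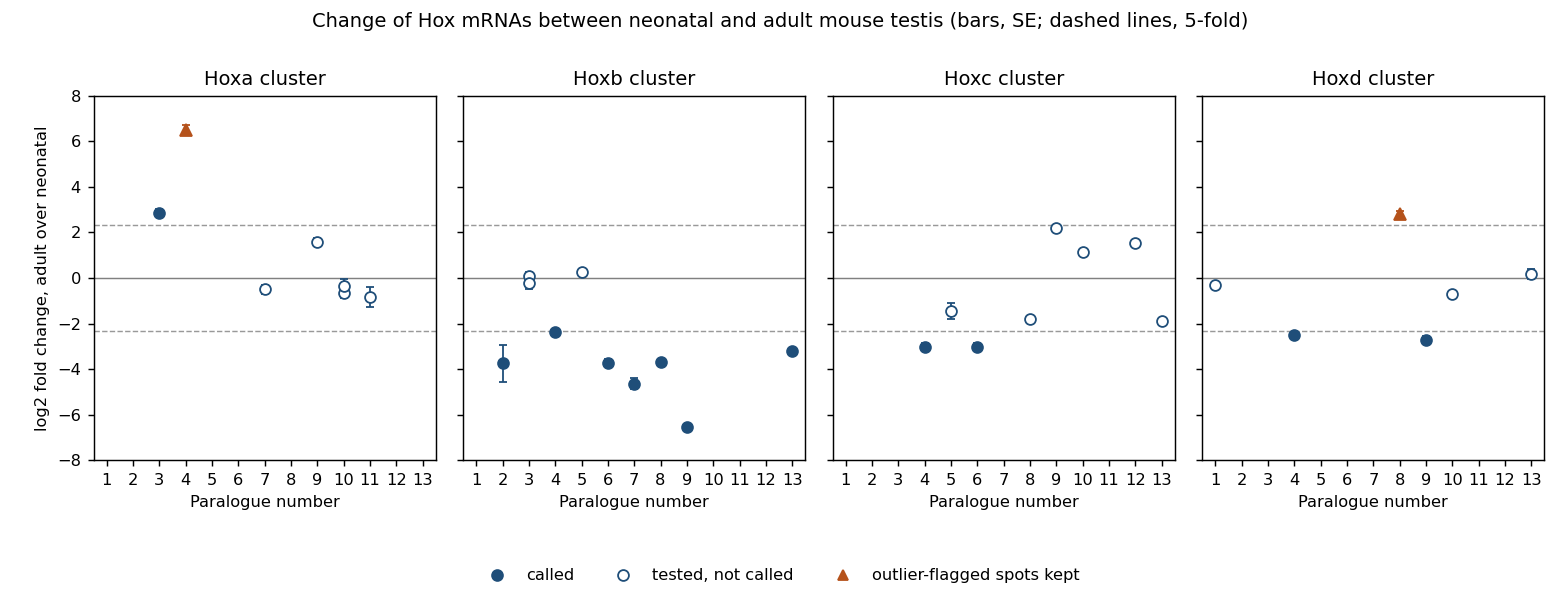
The log2 fold change of each Hox probe, adult over neonatal testis, is plotted against its paralogue number in 4 panels, one per cluster, with bars for the SE and dashed lines at 5-fold. Filled circles are called, open circles tested but not called, and triangles come from the fit that kept outlier-flagged spots; Hoxb9 is the lowest point at -6.52 and Hoxa4 the highest at 6.49.

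Hoxb9 (NM_008270) showed the largest decrease among the tested Hox probes. Its level was 61.3, 61.1 and 61.1 percent in the neonatal arrays and 0.608, 0.634 and 0.353 percent in the adult arrays, where it was not well above background. The neonatal values lay within a fraction of a percent of each other and far above every adult value. The adult level was at least 70.2-fold lower, from 2 neonatal arrays, since the spot of replicate 3 was an outlier (log2 fold change -6.52, SE 0.14, adjusted p = 0.000205). This bound holds for the scanner's own background subtraction, and the log2 fold change was -5.17 with normexp and no offset and -3.58 with the offset. After flooring, the adult values of Hoxb9 were all equal, and the paired changes in the test were -6.5218 and -6.5165. Its SE thus rests mostly on variance that limma borrows from other probes. Hoxb9 is one of the abdominal-type genes in the middle of the paralogue series.

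Its neighbours in the Hoxb cluster followed the same direction. Hoxb8 (NM_010461) measured 12.5, 9.43 and 6.78 percent in the neonatal arrays and 0.815, 0.430 and 0.258 percent in the adult arrays, none of them well above background. It was at least 10.4-fold lower in the adult (log2 fold change -3.70, SE 0.16, adjusted p = 0.000213). With normexp the log2 fold change was -2.56 without the offset and -1.08 with it, where the call of Hoxb8 was lost. Both age groups of Hoxb8 were lowest in replicate 3, and the ages did not overlap.

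Hoxb7 (NM_010460) measured 21.3, 16.7 and 34.9 percent in the neonatal and 1.30, 0.577 and 0.943 percent in the adult arrays. Only 1 adult array had it well above background. On floored values this is a 24.7-fold decrease (log2 fold change -4.63, SE 0.26, adjusted p = 0.000354). Hoxb6 (NM_008269) measured 38.2, 24.1 and 55.6 percent in the neonatal and 2.44, 2.15 and 3.27 percent in the adult arrays. It was 13.2-fold lower (log2 fold change -3.73, SE 0.19, adjusted p = 0.000984). With normexp these changes were smaller, with a log2 fold change of -3.84 for Hoxb7 and -3.28 for Hoxb6 without the offset and of -2.36 and -2.46 with it, and both kept their calls. For both genes the neonatal arrays differed by somewhat more than a doubling, which is small beside the gap to the adult arrays. The call of Hoxb6 was lost with the t-test of the methods after adjustment, at the same log2 fold change.

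Hoxb13, Hoxb2 and Hoxb4 were called lower too. Hoxb13 (NM_008267), known for its expression in prostate and hindgut, measured 17.5, 13.9 and 14.1 percent in the neonatal and 1.60, 1.58 and 1.72 percent in the adult arrays. It was 9.24-fold lower (log2 fold change -3.21, SE 0.13, adjusted p = 0.000193), and with normexp it was called without the offset (log2 fold change -2.64) and not with it (-1.61). Hoxb2 (NM_134032), a hindbrain gene, measured 23.4, 16.0 and 27.7 percent in the neonatal and 0.426, 3.14 and 3.13 percent in the adult arrays. Adult replicate 1 was not well above background and stood apart from the other adult arrays. Its log2 fold change of -3.74 had the widest error of the called Hox genes (SE 0.80, adjusted p = 0.0253). Without adult replicate 1 and the replicate block it was -2.63. The call of Hoxb2 was lost with normexp and the offset, with no filter on dim probes and with the t-test of the methods. Hoxb4 (NM_010459), studied for its role in blood stem cells, measured 35.5, 30.2 and 31.5 percent and then 6.60, 6.18 and 6.99 percent. It was 5.13-fold lower (log2 fold change -2.36, SE 0.14, adjusted p = 0.00133), just past the threshold. With outlier-flagged spots kept the fold was 4.91, so the call of Hoxb4 ended.

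Within the same cluster Hoxb3 and Hoxb5 did not pass the test. Hoxb3 has 2 probes. NM_001079869 measured 40.2, 33.8 and 95.7 percent in the neonatal and 34.6, 49.1 and 89.3 percent in the adult arrays, and NM_010458 measured 49.3, 37.5 and 113.7 and then 34.2, 50.6 and 77.0 percent. The ages overlapped, with replicate 3 the highest at both. The 95% intervals of the log2 fold change ran from -0.45 to 0.60 and from -0.90 to 0.46. Hoxb5 (NM_008268) measured 16.2, 14.3 and 34.5 percent in the neonatal and 22.7, 15.7 and 37.3 percent in the adult arrays, with an interval from -0.11 to 0.60. The intervals of Hoxb3 and Hoxb5 leave out a 5-fold change in either direction.

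In the Hoxc cluster Hoxc4 and Hoxc6 were down-regulated and no gene was up-regulated. Hoxc4 (NM_013553) measured 95.4, 112.0 and 162.5 percent in the neonatal and 13.5, 12.2 and 20.2 percent in the adult arrays, an 8.06-fold decrease (log2 fold change -3.01, SE 0.18, adjusted p = 0.00124). Hoxc6 (NM_010465) measured 72.5, 61.5 and 106.2 percent and then 10.1, 6.73 and 13.6 percent, an 8.09-fold decrease (log2 fold change -3.02, SE 0.17, adjusted p = 0.00116). No adult value of Hoxc4 or Hoxc6 reached a neonatal value. Both lost their calls with the t-test of the methods after adjustment, at the same log2 fold changes.

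Below 5-fold, Hoxc8 (NM_010466) measured 90.1, 74.3 and 151.9 percent in the neonatal and 22.5, 24.0 and 45.5 percent in the adult arrays (3.45-fold lower, adjusted p = 0.000609). Hoxc13 (NM_010464), a regulator of hair keratins, measured 2.56, 2.34 and 2.50 percent in the neonatal arrays and was not well above background in the adult, at least 2.82-fold lower (adjusted p = 0.00033). With normexp the log2 fold change of Hoxc13 was -1.20 without the offset and -0.10 with it, while with no floor (-2.58) and with quantile normalization (-2.65) it passed 5-fold. Hoxc5 (NM_175730) measured 1.62, 3.29 and 3.08 percent and then 0.431, 0.529 and 1.83 percent, with 1 adult array well above background and overlapping groups (log2 fold change -1.44, SE 0.33, adjusted p = 0.0178), and with normexp its log2 fold change was -1.07 without the offset and -0.14 with it.

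Hoxc9, Hoxc10 and Hoxc12 were higher in the adult by the adjusted p without reaching 5-fold. Hoxc9 (NM_008272) measured 8.20, 9.20 and 3.10 percent in the neonatal and 35.5, 38.4 and 16.9 percent in the adult arrays. Replicate 3 was the lowest at both ages, and the paired change was 4.62-fold (log2 fold change 2.21, SE 0.13, adjusted p = 0.000392). Hoxc9 passed 5-fold without neonatal replicate 1 (2.41), without neonatal replicate 2 (2.50) or without adult replicate 3 (2.58). These fits left out a single array and had no replicate block, so scans 1 and 2 were uneven between the ages. Without both arrays of replicate 3 and with the block, the log2 fold change of Hoxc9 was 2.09, short of 5-fold. Hoxc10 (NM_010462) measured 96.1, 87.5 and 230.1 percent in the neonatal and 196.6, 198.8 and 553.4 percent in the adult arrays. Neonatal replicate 3 lay above adult replicates 1 and 2, so the ages overlapped, while within each pair the adult array was higher, by 1.03, 1.18 and 1.27 on the log2 scale (2.24-fold, adjusted p = 0.00128). Hoxc12 (NM_010463) measured 2.19, 2.51 and 3.05 percent and then 7.16, 7.19 and 8.19 percent (2.93-fold higher, adjusted p = 0.000703).

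In the Hoxd cluster Hoxd9 and Hoxd4 fell. Hoxd9 (NM_013555) measured 320.4, 393.3 and 346.9 percent in the neonatal and 52.9, 56.1 and 71.4 percent in the adult arrays, a 6.52-fold decrease (log2 fold change -2.70, SE 0.15, adjusted p = 0.00112). Hoxd4 (NM_010469) measured 86.2, 88.6 and 202.3 percent and then 15.5, 15.2 and 27.7 percent, a 5.68-fold decrease (log2 fold change -2.51, SE 0.14, adjusted p = 0.00112). The ages of Hoxd4 and Hoxd9 did not overlap. The call of Hoxd9 was lost with the t-test of the methods after adjustment, at the same log2 fold change. Without the replicate block the log2 fold change of Hoxd4 was -2.22 and that of Hoxb4 -2.32, both short of 5-fold. In that fit adult replicate 3 of both genes entered without its outlier-flagged neonatal partner in scan 2. With outlier-flagged spots kept the values over 3 pairs were -2.63 for Hoxd4 and -2.30 for Hoxb4.

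Hoxd8 (NM_008276) moved against its neighbour Hoxd9. All 6 of its spots were marked as outliers, so its values come from the fit that kept such spots. It measured 89.5, 90.8 and 53.4 percent in the neonatal and 600.0, 583.2 and 428.2 percent in the adult arrays, 7.01-fold higher (log2 fold change 2.81, SE 0.13, adjusted p = 0.000118). Every adult value lay above every neonatal value, and replicate 3 was the lowest at both ages. Hoxd10 (NM_013554) measured 1.18, 1.59 and 1.51 percent in the neonatal arrays and was not well above background in the adult, at least 1.51-fold lower (adjusted p = 0.00711), with the direction turned under normexp with the offset but not without it. Hoxd13 (NM_008275), which patterns digits and the genital tubercle, measured 1.09, 0.822 and 1.83 percent and then 1.39, 1.18 and 1.42 percent, with a 95% interval from -0.42 to 0.76. Hoxd1 (NM_010467) was well above background on 1 neonatal array only, at 0.992 percent.

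The Hoxa cluster held the strongest increase. Hoxa4 (NM_008265), long known from mouse work for transcripts in male germ cells, measured 7.13, 8.89 and 3.93 percent in the neonatal and 808.1, 906.1 and 245.2 percent in the adult arrays. Its 3 adult spots were marked as outliers and it was not tested in the fit that leaves these out. With outlier-flagged spots kept it was 89.7-fold higher in the adult (log2 fold change 6.49, SE 0.21, adjusted p = 5.27e-05). Replicate 3 was the lowest at both ages, and the lowest adult value was still far above the highest neonatal value.

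Hoxa3 (NM_010452), required for thymus and parathyroid formation, measured 17.4, 16.7 and 22.0 percent in the neonatal and 114.0, 132.8 and 228.6 percent in the adult arrays. It was 7.23-fold higher over 2 pairs, the spot of adult replicate 3 being an outlier (log2 fold change 2.85, SE 0.16, adjusted p = 0.00113). The call of Hoxa3 was lost with the t-test of the methods after adjustment, at the same log2 fold change. Hoxa9 (NM_010456), a gene of blood progenitors, measured 9.56, 8.06 and 27.7 percent in the neonatal and 30.4, 23.4 and 64.2 percent in the adult arrays. The ages overlapped because neonatal replicate 3 lay above adult replicate 2, and within pairs the adult array was higher by 1.67, 1.54 and 1.21 (3.04-fold over 2 pairs, adjusted p = 0.00303). The log2 fold change of 1.60 fell to 1.05 without the replicate block and to 0.71 without neonatal replicate 2 and the block. In both of these fits neonatal replicate 3 of Hoxa9 entered without adult replicate 3, its partner in scan 2. With outlier-flagged spots kept the log2 fold change of Hoxa9 was 1.47 over 3 pairs. Keeping outlier-flagged spots raised the up-regulated Hox genes to 3, Hoxa3, Hoxa4 and Hoxd8, against 12.8 percent of mRNA probes, and left 10 down-regulated, against 15.4 percent.

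**Figure D2:**
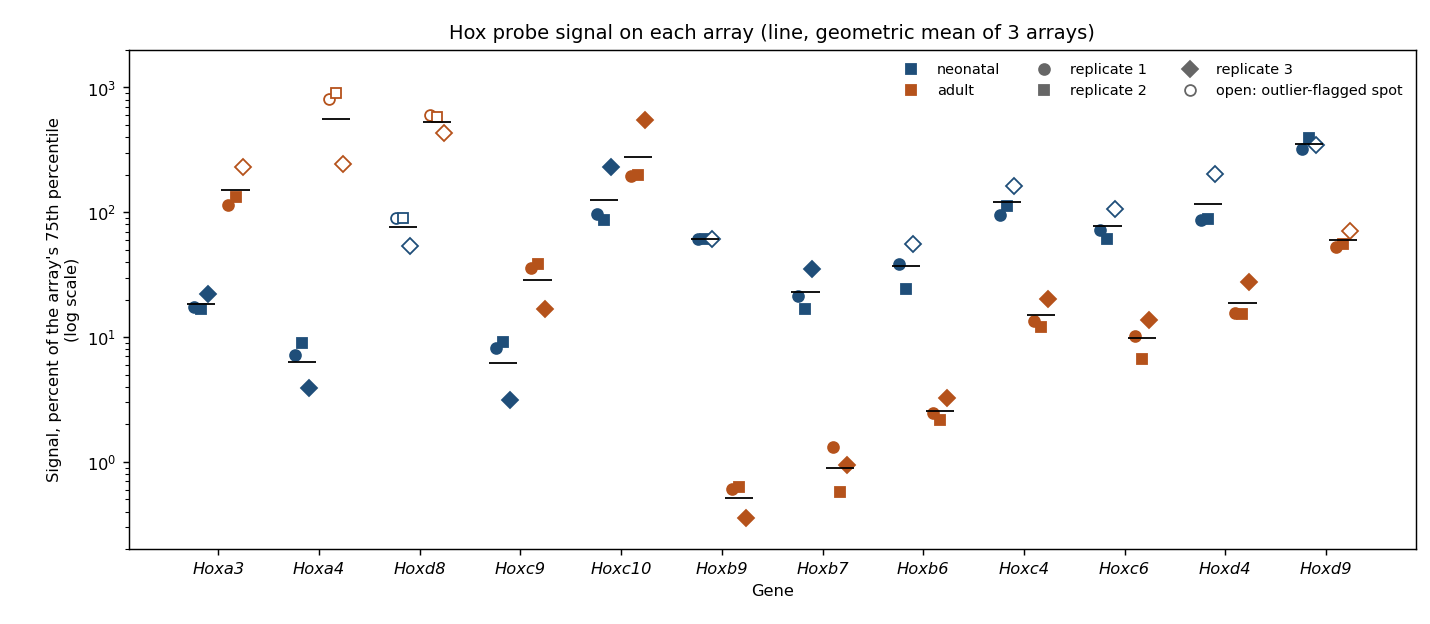
The probe signal of 12 Hox genes on each of the 6 arrays is plotted in percent of the array's 75th percentile on a log axis, with neonatal arrays in blue, adult arrays in orange, a marker shape per replicate, open markers for outlier-flagged spots and a line at the geometric mean of 3 arrays. In the plot the ages of Hoxc10 overlap, with neonatal replicate 3 at 230.1 percent above 2 of the adult arrays, and the ages of the other genes shown do not.

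The remaining Hoxa genes were near background or did not pass the test. Hoxa10, which patterns the reproductive ducts, has 2 probes. NM_008263 measured 6.23, 3.01 and 7.45 percent in the neonatal and 2.84, 3.68 and 6.44 percent in the adult arrays, with a 95% interval from -1.20 to 0.49. NM_001122950 measured 1.30, 0.220 and 1.28 percent in the neonatal arrays, with 1 of them well above background, and was not well above background in the adult. In both Hoxa10 probes neonatal replicate 2 was the lowest neonatal array. Crisp1, a secreted protein of the epididymis, measured 539.5, 4.92 and 570.7 percent in the same 3 neonatal arrays and 5.32, 4.83 and 2.53 percent in the adult arrays. Of the down-regulated genes, Hoxb2, Hoxb4, Hoxb6, Hoxb7, Hoxb13 and Hoxc6 also had their lowest neonatal value in replicate 2, by smaller margins than Crisp1. For Hoxb13 it was 13.9 percent against 14.1 in replicate 3, and for Hoxb4 30.2 against 31.5. Hoxb8, Hoxb9, Hoxc4, Hoxd4 and Hoxd9 did not. Of the tested genes higher in the adult by the adjusted p, Hoxa3, Hoxa9 and Hoxc10 were lowest in neonatal replicate 2 and Hoxc9 and Hoxc12 were not. The share of all probes lowest in that array is not given, so this order of arrays cannot be called particular to Hox genes. Whether the neonatal pools held epididymal tissue is not stated in the labels, and its part in the Hox values was not tested.

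Hoxa11 (NM_010450), another gene of the reproductive ducts, measured 2.70, 0.721 and 0.860 percent in the neonatal arrays, with replicate 1 alone well above background, and was not well above background in the adult (adjusted p = 0.148). Hoxa7 (NM_010455) measured 8.02, 8.05 and 3.67 percent and then 4.59, 5.03 and 3.69 percent. The ages of Hoxa7 overlapped because neonatal replicate 3 lay below every adult value (log2 fold change -0.49, SE 0.20, adjusted p = 0.0892).

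In groups 4, 8 and 9 paralogues moved in different directions. Of the 4 genes numbered 4, Hoxb4, Hoxc4 and Hoxd4 were down-regulated and Hoxa4 was higher with outlier-flagged spots kept. The change of Hoxa4 exceeded that of Hoxd4 by 9.30, 9.21 and 8.83 on the log2 scale in replicates 1, 2 and 3. Of the 4 genes numbered 9, Hoxb9 and Hoxd9 were down-regulated, while Hoxa9 and Hoxc9 were higher by the adjusted p. The change of Hoxc9 exceeded that of Hoxd9 by 4.71, 4.87 and 4.73. The genes of paralogue group 8 split likewise, and the change of Hoxc8 was below that of Hoxd8 by a log2 difference of -4.74, -4.31 and -4.74. With 3 pairs the smallest two-sided p of an exact sign-flip test is 0.25, and these differences were not tested.

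In group 6 both detected genes, Hoxb6 and Hoxc6, were down-regulated, with Hoxa6 not well above background. In group 7, Hoxb7 was down-regulated and Hoxa7 did not pass the test. In group 13, Hoxb13 was down-regulated, Hoxc13 was lower by the adjusted p and Hoxd13 did not pass. In group 10, Hoxc10 was higher, Hoxd10 lower and Hoxa10 did not pass. Over the 27 tested genes, paralogue number and log2 fold change had a Pearson r of 0.0843 and a Spearman rho of 0.112, given as a description across genes that share the same 6 arrays. By cluster r was -0.76 in Hoxa, -0.44 in Hoxb, 0.55 in Hoxc and 0.21 in Hoxd, over 5, 9, 8 and 5 genes, so the pooled value joins opposite signs. With outlier-flagged spots kept the pooled r was -0.03.

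Scan 2 holds 1 array of each age, and for 8 of the 11 down-regulated genes this pair did not enter the test because at least 1 spot was an outlier. These were Hoxb2, Hoxb4, Hoxb6, Hoxb9, Hoxc4, Hoxc6, Hoxd4 and Hoxd9, whose folds and p-values thus rest on 2 pairs. With the outlier-flagged spots read, all 11 genes were lower in the adult array of scan 2, and 9 of them at least 5-fold. A single pair of arrays allows no test within scan 2.

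Noncoding RNAs of the Hox clusters were described from the same fit. They were found by symbol, or by Hox neighbours named in supplementary annotation that covers transcripts reported as changed, and 5 probes were present. The transcript uc008keh, placed next to Hoxd3 and Hoxd1, measured 0.575, 0.191 and 0.604 percent in the neonatal arrays, where it was not well above background, and 162.9, 170.4 and 158.5 percent in the adult arrays. It was at least 233.8-fold higher over 2 adult arrays (log2 fold change 7.96, SE 0.14, adjusted p = 0.000164). Its protein-coding neighbour Hoxd3 was detected on no array.

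The transcript uc007xwu, next to Hoxc13, measured 0.758, 1.18 and 1.30 percent in the neonatal and 18.9, 17.9 and 26.2 percent in the adult arrays (19.7-fold higher, adjusted p = 0.00019). Hoxc13 itself was lower by the adjusted p. The transcript uc007lbs, near Hoxb4 and Hoxb7, measured 0.319, 0.189 and 0.382 percent, not well above background, and then 9.78, 11.7 and 12.8 percent, at least 15.9-fold higher (adjusted p = 0.000135). Hoxb4 and Hoxb7 were both down-regulated.

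The transcript AK052984, beside Hoxc4, was not well above background in the neonatal arrays and measured 1.86, 2.16 and 2.15 percent in the adult arrays, at least 2.88-fold higher (adjusted p = 0.000568). Hoxa11os, transcribed against Hoxa11, was detected on no array. Of the 4 tested noncoding probes 3 were up-regulated and none was down-regulated, against 19.9 and 9.62 percent of lncRNA probes. Since these 4 were picked from transcripts already reported as changed, their count is not a rate for the clusters.

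The partners of Hox proteins on DNA are the TALE homeodomain proteins of the Pbx, Meis and Pknox families. Pbx4 measured 90.1, 100.1 and 96.2 percent in the neonatal and 3506, 3454 and 4766 percent in the adult arrays (36.7-fold higher, adjusted p = 0.000313). Pbx2 was 5.15-fold lower (adjusted p = 0.000718). Meis1 and Meis3 were detected on no array.

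Polycomb genes, the silencers of Hox clusters, had 4 down-regulated members of 16 tested and none up-regulated, against 13.7 percent of mRNA probes lower and 12.6 percent higher. These were Pcgf2 (11.5-fold, adjusted p = 0.000141), Cbx2 (11.4-fold, adjusted p = 0.000678), Cbx8 (7.03-fold, adjusted p = 0.000891) and Cbx6 (6.12-fold, adjusted p = 0.00102). Cbx2 is also known for its part in gonad formation. The enzyme gene Ezh2 was 2.10-fold higher by one probe and 2.28-fold by the other, below the threshold.

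Among Trithorax genes and demethylases of histone H3 lysine 27, 2 of 7 tested were down-regulated and none up-regulated, against 13.7 and 12.6 percent of mRNA probes. Kdm6b was 12.1-fold lower (adjusted p = 0.000449) and Kdm6a 5.19-fold lower (adjusted p = 0.00275), both enzymes that remove the Polycomb mark.

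Of the upstream regulators 3 of 10 tested were down-regulated and none up-regulated, against 13.7 and 12.6 percent of mRNA probes. Egr2, which drives Hox genes in the hindbrain, was 20.7-fold lower (adjusted p = 0.000385). The retinoic acid receptor genes Rarb (11.8-fold, adjusted p = 0.000162) and Rarg (5.37-fold by one probe and 5.27-fold by the other) were lower as well. Cdx2 and Cdx4 were detected on no array.

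The genes flanking the clusters had 1 up-regulated member of 7 tested and none down-regulated, against 12.6 and 13.7 percent of mRNA probes. Ttll6, a tubulin glutamylase near the Hoxb cluster, measured 1.91, 3.76 and 2.74 percent in the neonatal and 1907, 1635 and 2056 percent in the adult arrays (659-fold higher, adjusted p = 0.000572). Skap2, at the end of the Hoxa cluster, had a log2 fold change of 0.02 (SE 0.14).

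Marker genes of several somatic cell types fell with the Hox genes, and their part in the Hox result was not tested. Beside the counts of marker lists stand the shares of all mRNA probes, 13.7 percent lower and 12.6 percent higher. Of 4 tested markers of stromal mesenchyme 3 were down-regulated, and the 6 genes summed to 12730, 12550 and 17440 percent in the neonatal and 1895, 2567 and 2627 percent in the adult arrays, with the highest signal from Dcn on all arrays but neonatal 1. Of 5 endothelial markers 2 were down-regulated, with sums of 816.1, 927.8 and 1538 percent and then 228.1, 193.0 and 338.1 percent, with the highest signal from Cdh5. Sertoli markers had 1 of 3 tested down-regulated, with sums of 9591, 10360 and 7970 percent and then 2388, 1922 and 1956 percent, with the highest signal from Inha. None of these 3 lists had an up-regulated member. With outlier-flagged spots kept, 5 of 6 stromal, 2 of 5 endothelial and 4 of 7 Sertoli markers were down-regulated, against 15.4 percent of mRNA probes.

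Peritubular myoid markers had no called gene of 4 tested, with sums of 2169, 2195 and 2700 percent and then 478.4, 433.4 and 654.1 percent. Myh11 had the highest signal and Cnn1 was detected on no array. Blood markers had 1 of 2 tested down-regulated, Hbb-bt, which had the highest signal on all arrays but adult 1, with sums of 1666, 2059 and 1836 percent and then 343.0, 538.3 and 415.5 percent. The other tested blood marker, Alas2, was 3.40-fold and 3.97-fold higher by its probes (adjusted p = 0.00569 and 0.00547). In the fit that kept outlier-flagged spots, Hba-a1 was 13.7-fold lower and 2 of 3 blood markers were down-regulated, against 15.4 percent of mRNA probes. Leydig markers had no called gene of 4 tested, with sums of 2645, 2841 and 2543 percent and then 7279, 5643 and 5424 percent, with the highest signal from Insl3 in the adult. Of 6 Leydig markers tested with outlier-flagged spots kept 1 was up-regulated, Insl3 (11.2-fold), against 12.8 percent of mRNA probes. Macrophage markers had no called gene of 2 tested, with sums of 283.2, 279.9 and 275.8 percent and then 177.3, 188.5 and 244.9 percent, with the highest signal from Csf1r.

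Germ cell markers moved in both directions. Spermatogonial markers had 2 of 3 tested down-regulated, Sall4 and Stra8, with sums of 5951, 5796 and 6213 percent and then 3536, 3902 and 3189 percent. The highest signal was from Ddx4 in the adult. With outlier-flagged spots kept, Ddx4 was 4.55-fold higher in the adult by one probe and did not pass by the other, while Zbtb16 was 12.45-fold lower. The spermatogonial sum thus joins genes that moved in opposite directions. Spermatocyte markers had 3 of 5 tested up-regulated, Ccna1, Piwil1 and Spo11, against 12.6 percent of mRNA probes, with sums of 1648, 1359 and 1025 percent and then 10420, 11800 and 12250 percent, with the highest signal from Piwil1 in the adult. Spermatid markers had 5 of 5 tested up-regulated. The part of these germ cell markers in the increases of Hoxa3, Hoxa4 and Hoxd8 was not tested.

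Because posterior Hox genes mark the reproductive ducts, epididymal and Wolffian duct genes were measured too. Of 14 tested, 3 were up-regulated (Aqp9, Cst8 and Ros1) and 1 was down-regulated (Defb42), against 12.6 and 13.7 percent of mRNA probes. The 16 genes summed to 1086, 603.4 and 1753 percent in the neonatal and 5686, 6281 and 9775 percent in the adult arrays. The highest signal was from Cst8 on all arrays but neonatal 1, where it was from Crisp1. Cst8 alone measured 5293, 5976 and 8886 percent in the adult arrays, so the adult sum is mostly that of Cst8 and does not describe the list. Defb42 measured 67.3, 31.8 and 82.6 percent in the neonatal arrays and was not well above background in the adult, at least 53.1-fold lower (adjusted p = 0.0011). Like Crisp1 it was lowest in neonatal replicate 2, as was Adam7 (26.9, 18.5 and 49.1 percent). Cst8 (317.1, 405.2 and 618.3 percent) and Pax8 (56.4, 65.7 and 105.7 percent) were lowest in neonatal replicate 1, so members of the list differed. Lcn8 and Rnase9 were detected on no array.

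Promoter windows were available for 22 of the 39 Hox genes (RefSeq, GRCm38.p6). Over these genes the median ratio of observed to expected CpG was 0.625, against 0.388 over 27025 genes, and the median GC content was 56.9 percent against 52.7 percent. The 250 bases before the start were searched on both strands for several short motifs. The nuclear receptor half-site AGGTCA, which retinoic acid receptors can bind, was in 6 of the 24 Hox windows, against 14.0 percent of all 32851 windows. Its variant AGTTCA was in 2 Hox windows, against 11.8 percent of all. The motif TGATNNAT, known for Pbx and Hox proteins together, was in 4 Hox windows, against 7.68 percent of all. The Cdx-type motif TTTATG was in 5 Hox windows, against 10.8 percent of all, and in the Hoxd3 window it overlaps the receptor half-site. The TATA-box letters TATAAA were in 4 Hox windows, against 12.4 percent of all. A match is a description of letters and not of binding.

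The windows of Hoxb4, Hoxc4 and Hoxd4 are shown because these paralogues fell together, and those of Hoxd8 and Hoxd9 because these neighbours moved apart. All 5 lie on the plus strand of GRCm38.p6, and capitals mark the motifs searched. Hoxb4 spans chr11:96318017-96318266, Hoxc4 chr15:103034145-103034394, Hoxd4 chr2:74721728-74721977, Hoxd8 chr2:74704365-74704614 and Hoxd9 chr2:74697513-74697762.
Hoxb4: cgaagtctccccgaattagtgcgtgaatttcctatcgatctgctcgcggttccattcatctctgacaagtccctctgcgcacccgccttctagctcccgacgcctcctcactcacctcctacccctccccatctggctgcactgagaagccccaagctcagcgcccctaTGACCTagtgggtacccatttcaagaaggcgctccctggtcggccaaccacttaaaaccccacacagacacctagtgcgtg
Hoxc4: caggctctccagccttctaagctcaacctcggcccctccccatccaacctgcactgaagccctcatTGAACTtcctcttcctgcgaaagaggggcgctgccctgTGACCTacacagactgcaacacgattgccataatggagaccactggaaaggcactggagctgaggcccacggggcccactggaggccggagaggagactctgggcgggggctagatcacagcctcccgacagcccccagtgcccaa
Hoxd4: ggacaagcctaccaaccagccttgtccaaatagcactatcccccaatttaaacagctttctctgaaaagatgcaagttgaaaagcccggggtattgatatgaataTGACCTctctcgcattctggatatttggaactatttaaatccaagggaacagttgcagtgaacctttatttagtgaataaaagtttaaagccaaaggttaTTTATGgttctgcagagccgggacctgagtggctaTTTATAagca
Hoxd8: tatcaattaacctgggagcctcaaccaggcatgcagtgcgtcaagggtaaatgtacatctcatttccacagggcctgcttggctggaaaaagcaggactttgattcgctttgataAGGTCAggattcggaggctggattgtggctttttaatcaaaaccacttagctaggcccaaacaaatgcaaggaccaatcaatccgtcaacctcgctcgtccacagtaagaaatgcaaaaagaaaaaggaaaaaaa
Hoxd9: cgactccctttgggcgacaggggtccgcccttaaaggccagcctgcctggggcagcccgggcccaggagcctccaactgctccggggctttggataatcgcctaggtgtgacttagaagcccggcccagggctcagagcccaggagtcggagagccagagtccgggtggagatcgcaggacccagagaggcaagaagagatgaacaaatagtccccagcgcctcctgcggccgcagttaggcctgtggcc
AGGTCA or its complement is present in the windows of Hoxb4, Hoxc4, Hoxd4 and Hoxd8, which include both falling and rising genes. The window of Hoxd9 holds none of the motifs.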

How the data were processed

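The members and gene lists were chosen with earlier results of these data known. The deposited scanner files hold one-colour spot intensity, which per the file headers came from Agilent Feature Extraction 10.5.1.1 with its own background subtraction. The authors also deposited log2 values, which equal log2 signal floored at 5 plus one negative constant per array for 99.8 percent of values within 0.001. Each constant and log2 of the array's median signal sum to 0.011 to 0.020, so these values are close to a shift by the array median. Their own medians lie between 1.20 and 1.30.

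The processed signal was divided by the array's 75th percentile, floored at a common log2 value of -7.23 and log2-transformed. Control spots and outlier-flagged spots (6.11 to 30.7 percent of spots per array) were left out. Testing needed 2 complete pairs and 1 array with the probe well above background, and used limma 3.58.1 (R 4.3.3), also tried on simulated data. With 2.09 prior degrees of freedom the variance of a probe is partly borrowed from other probes, more so on 2 pairs than on 3. A probe at the floor on every array of an age shows no spread in that age. The methods name a paired test, so the replicate number was a block. Deviations from the group mean correlated at 0.497, 0.429 and 0.777 within numbers. Within scan 1, replicates 1 and 2 correlated as well across numbers, at 0.470 and 0.508, so the number marked no closer pairs there. Between scans the correlations ran from -0.69 to -0.556. Replicate 3 is the only number in scan 2, so for it scan and number cannot be told apart.

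A lower bound sets the bright age's mean against the dim age's mean of, per array, the higher of the lowest signal well above background and the probe's own. A gene counts as called where 1 probe is. Noncoding probes outside the symbol rule come from supplementary lists of changed transcripts. RefSeq accessions named 21905 of 22464 mRNA probes. Named Hox genes are all members of the rule, and from other lists the called ones and at most 4 with values are given. Other scalings, background correction, filters, tests, thresholds and left-out arrays were tried, and combinations with outlier-flagged spots kept, normexp without its offset of 50 and the offset alone were added after seeing the data. Items withheld for evaluation are not reported here.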

Additional observations from a re-analysis of the deposited data

How the results depend on the processing

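The 11 down-regulated and 1 up-regulated Hox genes changed in number under some alternatives. With normexp background correction and its offset 6 were down-regulated, also with outlier-flagged spots kept, and Hoxb2, Hoxb4, Hoxb8, Hoxb13 and Hoxd4 were lost. With the offset on the scanner's signal 6 were down-regulated, with the same genes lost, and with normexp and no offset 10 were. By the methods' t-test after adjustment 6 were down-regulated and 0 up-regulated (unadjusted, 10 and 1). Hoxb2, Hoxb6, Hoxc4, Hoxc6, Hoxd9 and Hoxa3 lost their calls after adjustment, at the same log2 fold changes, and unadjusted only Hoxb2 did. Leaving out replicates, or single arrays with no replicate block, gave 3 to 11 down-regulated and 0 to 2 up-regulated. Without replicate 1 the numbers were 3 and 0 and without replicate 2 they were 3 and 0, because 8 of the 11 genes then had too few unflagged pairs to be tested. With outlier-flagged spots kept, leaving out a replicate gave 10 to 11 down-regulated and 3 up-regulated. Up-regulated Hox genes numbered 2 with the authors' log2 values, 3 with outlier-flagged spots kept and in its combinations with other choices (chosen after seeing the data), and 5 at 2-fold or by adjusted p alone. Without the replicate block 9 were down-regulated and 1 up-regulated, and Hoxb4 and Hoxd4 were no longer called. The called cofactor and regulator genes, 13, numbered 10 with normexp and its offset, 17 with the authors' values, 27 at 2-fold and 37 by adjusted p alone. The called noncoding probes, 3, numbered 2 with normexp and its offset and 4 with quantile normalization or the authors' values.

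No called gene changed direction. Among the others, normexp turned both Hoxa10 probes (0.33 and 0.032), Hoxa11 (0.14), Hoxd1 (0.34) and Hoxd10 (0.32) to higher with its offset and none of them without it. The offset on the scanner's signal turned the same probes, to 0.43 and 0.057 for Hoxa10, 0.19 for Hoxa11, 0.47 for Hoxd1 and 0.35 for Hoxd10. Hoxb3 (NM_001079869) turned to -0.00051 with quantile normalization, -0.18 with the median and -0.19 with the authors' values, Hoxb5 to -0.010 and -0.015 with the median and the authors' values, and Hoxd13 to -0.29, -0.085 and -0.090 with quantile, median and authors' values. With arrays left out, values ranged from -0.30 to 0.53 for Hoxb3 (NM_001079869), from -0.55 to 0.25 for NM_010458, from -0.080 to 0.64 for Hoxb5, from -0.088 to 0.49 for Hoxd13 (turned also to -0.0025) and from -0.74 to 0.039 for Hoxa10 (NM_008263). Fits that left out a single array had no replicate block, so the scans were then uneven between the ages. The cause of these turns was not tested. Relative to the scaling used, the median over all mRNA probes shifted by -0.33 with quantile, -0.25 with median and 0.42 with normexp and its offset. With the authors' values it shifted by -0.44, over 18506 probes in place of 15121, so that scaling and probe set both differ. Levels of genes near background, such as Hoxc13 and Hoxd10, are limited by signal over background.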
